A study of Mus musculus and Mus musculus musculus x Mus musculus castaneus with 8 samples.

Results

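The regions described here are 13230 open chromatin sites that were found in donor mouse embryonic fibroblasts (MEFs) and that met no peak of C2C12 myoblasts and no peak of MEFs after nuclear transfer (NT) to Xenopus laevis oocytes. They were chosen by position: a donor MEF peak was a member when it shared not even 1 bp with a C2C12 peak from 50000 cells, or with a peak of the list after NT or of the list after NT with Toca1 overexpressed. These overlaps are the measured values the members were selected on, so the absence of members from those 3 lists is a description and not a finding. The members were 33.4% (95% Wilson interval 33.0% to 33.9%) of the 39592 donor MEF peaks and were drawn from lists that held 151729 peaks in all. Together they covered 4.89 Mb of the 17.4 Mb covered by donor MEF peaks.

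ATAC-seq finds open chromatin by letting the transposase Tn5 insert sequencing adaptors wherever DNA is accessible, so that reads pile up at promoters, enhancers and other sites where nucleosomes are displaced. Promoters of broadly expressed genes tend to be open in many cell types, whereas sites open in a single cell type are often distal enhancers bound by the transcription factors of that cell type. The germinal vesicle of a Xenopus oocyte can hold many transplanted mammalian nuclei and changes their transcription without cell division or DNA replication. Toca1, encoded by Fnbp1l, is an F-BAR protein that promotes actin polymerization.

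The study compared 5 conditions in 8 ATAC-seq libraries. Donor MEFs, permeabilized but not transplanted, gave 1 library of 3000 cells, and these fibroblasts came from embryos of a cross between Mus musculus musculus and Mus musculus castaneus. The same kind of permeabilized MEFs were collected 48 h after NT into control oocytes (2 libraries from separate NT experiments with oocytes pooled in each) and, at the same time point, after NT into oocytes overexpressing Toca1 (1 library). C2C12, a mouse myoblast line labelled with the strain C3h, gave 2 libraries of 50000 cells and 2 of 1000 cells, the latter amplified without the purification kit that the others went through. MEFs and C2C12 thus differed in cell type, strain, permeabilization and number of cells at once, and these cannot be told apart in the lists. Each condition is represented by 1 list of peak positions with no score or read number. No spread between replicates and no depth can therefore be given, the difference between lists has no replicate check, and a peak missing from a list cannot be told apart from a peak that was not detectable at its depth. The lists held 39592 peaks in donor MEFs, 52697 in C2C12 from 50000 cells, 34771 in C2C12 from 1000 cells, 8257 after NT and 16412 after NT with Toca1. Intervals below cover counting error over peaks only, since peaks of 1 list are not replicates.

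The rule divided donor MEF peaks by cell type and by their fate after NT. Of the 14030 donor peaks that met no C2C12 peak from 50000 cells, called fibroblast-only peaks here, 13230 were members and 800 were kept, meaning that they met a peak in at least 1 of the NT lists. Of those 800, 170 were found after control NT only, 518 after NT with Toca1 only and 112 in both. Absent from both NT lists were thus 94.3% of fibroblast-only peaks. Among the 25562 donor peaks shared with C2C12, 17515 were absent from both NT lists, or 68.5%. By chromosome, the share ran from 90.7% to 97.8% of fibroblast-only and from 61.6% to 74.3% of shared peaks. Both overlaps in this comparison are those of the rule, so these shares describe how the classes are made up and support nothing further. The list after NT with Toca1, which is the longer of the NT lists, held 4.49% of fibroblast-only peaks and 28.0% of shared peaks. The control list held 2.01% and 14.0%.

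Members were narrow peaks. Their width ran from 150 to 1496 bp with a median of 336 bp (interval 334 to 339 bp) and quartiles of 272 and 437.75 bp. Fibroblast-only peaks that were kept had a median of 376 bp (359 to 388 bp), shared peaks that were absent after NT 406 bp (403 to 409 bp), and shared peaks that were kept 533 bp (527 to 540 bp). Members were narrower by median than the other donor peaks, at 439.5 bp. Width is not independent of the rule, because a wider peak has more bases that can meet a peak of another list. Peak height is not in the lists, so whether narrow peaks were also weak was not tested.

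Absence after NT varied with width more among shared peaks than among fibroblast-only peaks. In the narrowest 10% of donor peaks (150 to 249 bp), 95% (94.0% to 95.8%) of fibroblast-only and 83.9% (82.1% to 85.6%) of shared peaks were absent from both NT lists. In the widest 10% (691 to 1688 bp), the shares were 89.9% (86.8% to 92.3%) and 45.6% (43.9% to 47.2%). The share of absent peaks thus fell less with width among fibroblast-only peaks. These values, too, come from the overlaps that the rule used and are a description. The part of all donor peaks that were members fell from 54.4% in the narrowest class to 10.6% in the widest, since few wide peaks were fibroblast-only: 57.3% of the narrowest class but 11.7% of the widest.

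**Figure D1:**
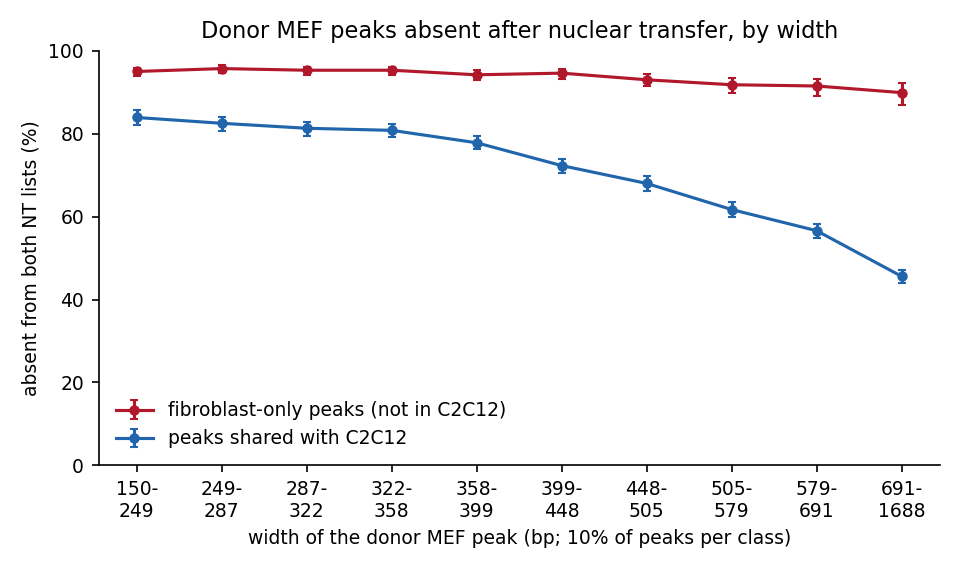
Share of donor MEF peaks absent from both NT lists (y axis, %) in 10 classes of peak width (x axis, bp, 10% of donor peaks in each), for fibroblast-only peaks (red) and peaks shared with C2C12 (blue), with 95% Wilson intervals as bars. The red line runs from 95% to 89.9%, while the blue line falls from 83.9% to 45.6%.

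The C2C12 list from 1000 cells was the only list that the rule did not use. Members were rarely found in it, but so were donor peaks that met the 50000-cell C2C12 list. Absence from the 1000-cell list thus says little about whether a site was closed in C2C12. Of all donor MEF peaks, 6.03% met a peak of that list. Of the members, 200 did, or 1.51% (1.32% to 1.73%). The shares were 3.50% (2.43% to 5.01%) for fibroblast-only peaks that were kept, 5.50% (5.17% to 5.85%) for shared peaks absent after NT and 14.9% (14.1% to 15.6%) for shared peaks that were kept. The interval of the members lay below those of the other 3 classes. On 20 of 20 chromosomes the share was lower in members (0.697% to 3.39%) than in the other donor peaks (5.13% to 11.6%), and it was also lower than in shared peaks absent after NT. Both C2C12 lists come from the same cell line, and the members had already been selected for absence from the 50000-cell list. All other donor peaks except the 800 kept fibroblast-only peaks had met that list. The lower share in members, overall and by chromosome, is thus not independent of the rule. It is a second look at the same line in other libraries and at another number of cells.

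Among members the share with a 1000-cell peak moved little with width, whereas it rose with width among shared peaks. From the narrowest to the widest 25% of donor peaks it was 1.54%, 1.26%, 1.50% and 2.08% in members, and the 4 intervals overlapped. In shared peaks absent after NT it was 3.08%, 3.95%, 5.49% and 9.30%, and in shared peaks that were kept it was 6.57%, 8.42%, 13.5% and 19.2%. Fibroblast-only peaks that were kept gave 1.57%, 5.00%, 4.52% and 3.40%, and their 4 intervals, wide because each class held at most 254 of these peaks, overlapped as well. In the narrowest class the members' share could not be separated from that of kept fibroblast-only peaks (interval 0.614% to 3.98%).

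**Figure D2:**
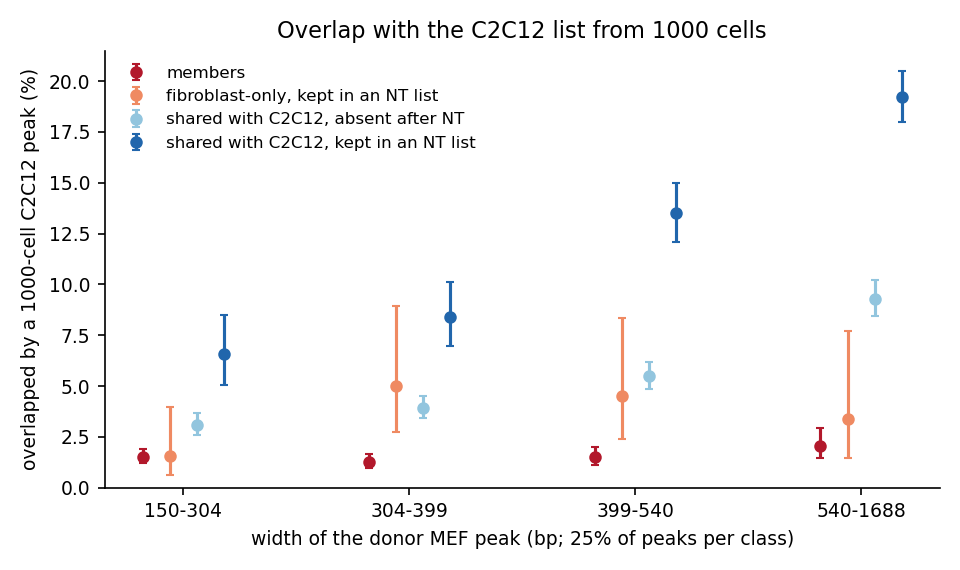
Share of donor MEF peaks overlapped by a 1000-cell C2C12 peak (y axis, %) in 4 classes of peak width (x axis, bp, 25% of donor peaks in each), for members and the other 3 classes of donor peaks, with 95% Wilson intervals as bars. Members (dark red) stay between 1.26% and 2.08%, whereas shared peaks that were kept (dark blue) rise from 6.57% to 19.2%.

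The 200 members with a 1000-cell peak resembled the other members in width, with a median of 337.5 bp against 336 bp, and shared a median of 188 bp with that peak. Of them, 31.5% had a 50000-cell C2C12 peak within 5000 bp, against 27.6% of the members without a 1000-cell peak. The widest of the 200 was chr3:98794793-98795697 (905 bp, 142 bp of them shared), in the coordinates of the lists, which are of the mouse build mm9. It lay 14780 bp from a 50000-cell peak and between the genes Hsd3b4 and Tbx15, a stretch of 10 protein-coding genes in RefSeq. Tbx15 is a T-box transcription factor of mesenchymal and skeletal development, and the Hsd3b genes encode steroid dehydrogenases.

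The next in width were chr16:88042458-88043274 (817 bp, 201 bp shared), chr15:6807574-6808381 (808 bp, 28 bp shared) and chr5:93565929-93566694 (766 bp, 150 bp shared). The peak at chr6:53446293-53447020 (728 bp) shared 297 bp with its 1000-cell peak and lay only 1026 bp from a 50000-cell peak. It lies between Evx1 and Tril, a stretch that also holds Hibadh, Tax1bp1, Jazf1 and Creb5. Of the remaining 5, a peak of 716 bp on chromosome 18 shared 20 bp. The others were chr6:98485729-98486441 (713 bp, 244 bp shared), chr8:90214423-90215131 (709 bp, 230 bp shared), chr14:19362596-19363271 (676 bp, 218 bp shared) and chr9:87760074-87760747 (674 bp, 156 bp shared). The peak on chromosome 8 falls between Abcc12 and Zfp423, which encodes a zinc finger factor of adipocyte precursors. Among these 10, the bases shared with the 1000-cell peak thus ranged from 20 to 297 bp, so some of the overlaps were marginal.

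Most members were far from any peak found after NT and closer to a C2C12 peak. The gap to the nearest C2C12 peak from 50000 cells had a median of 12403 bp (quartiles 4380 and 33906 bp). The gap to the nearest peak after NT with Toca1 was 39924 bp (13618 and 121651 bp), and to the nearest control NT peak 77335 bp (28596 and 221680 bp). The order of the gaps follows the number of peaks in the 3 lists, and how far list length sets it was not tested. A control NT peak lay within 500 bp of 119 members (0.899%) and within 5000 bp of 4.90%, while 43.4% had none within 100 kb. A Toca1 peak lay within 500 bp of 269 members (2.03%), and a C2C12 peak within 500 bp of 810 (6.12%). The nearest peak among the 3 lists was a C2C12 peak for 73.2% of members, a Toca1 peak for 19.1% and a control NT peak for 7.76%.

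Shared peaks that were absent after NT were also far from NT peaks, though less so, with median gaps of 64076 bp to the control list and 32667 bp to the Toca1 list. Of the members, 11516 (87.0%, 86.5% to 87.6%) were at least 5000 bp from both NT lists and 3190 (24.1%, 23.4% to 24.8%) at least 100 kb from both. At least 5000 bp from all 3 lists were 8827 (66.7%, 65.9% to 67.5%).

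**Figure D3:**
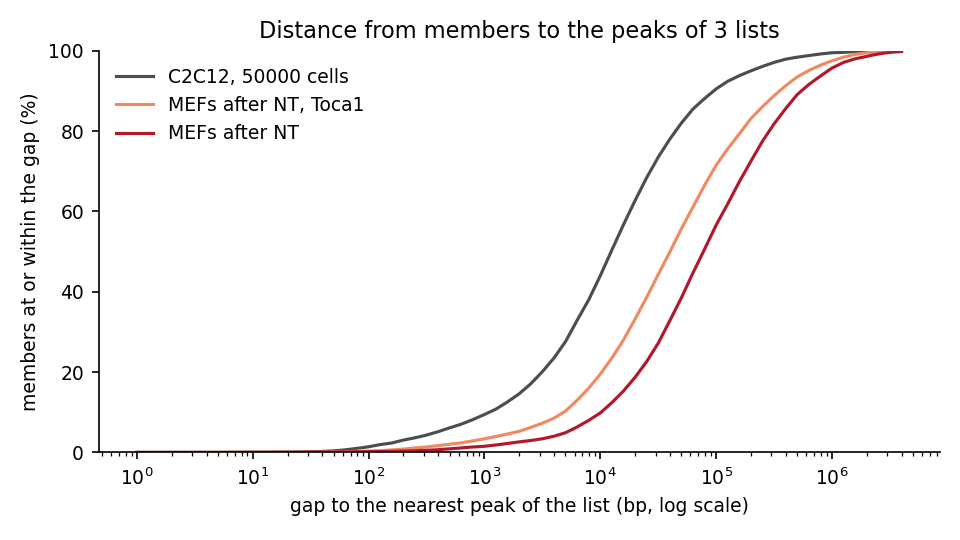
Cumulative share of members (y axis, %) whose nearest peak in a list lies at or within a gap (x axis, bp, log scale), for the C2C12 list from 50000 cells (grey), the list after NT with Toca1 (orange) and the list after control NT (dark red). At 5000 bp the curves stand at 27.6%, 10.3% and 4.90%.

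Few members lay at the edge of the rule. Within 50 bp of a peak, yet not touching it, were 50 members for the C2C12 list, 10 for the control NT list and 15 for the Toca1 list. Just outside the rule, 42, 69 and 77 donor peaks shared at most 50 bp with a peak of those lists. The median overlap of the 25562, 3854 and 7798 donor peaks that met those lists was 369, 314 and 391 bp. The members nearest to a control NT peak were chr11:119251220-119251442 (a gap of 6 bp), chr6:32933751-32934225 (14 bp) and chr4:9584277-9584698 (18 bp). Those nearest to a Toca1 peak were chr15:81877925-81878273 (1 bp), chr7:149644019-149644208 (5 bp) and chr19:55514843-55515281 (7 bp). All 6 had at least 2140 bp to the nearest C2C12 peak.

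Newly opened peaks are those of an NT list with no donor MEF peak closer than 5000 bp, and their nearest donor peaks were members about as often as donor peaks in general. The nearest donor peak was a member for 1064 of 3146 newly opened peaks after control NT (33.8%, 32.2% to 35.5%) and for 2217 of 6520 after NT with Toca1 (34.0%, 32.9% to 35.2%). Members were 33.4% of donor peaks, which lies inside both intervals. A member was the nearest other donor peak of 32.5% of donor peaks, which lies inside the first interval and just below the second.

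Members stood more apart from other donor peaks than shared peaks absent after NT did, though not more than every other class. The nearest other donor peak was a median of 11542 bp away, against 8225 bp for shared peaks absent after NT, 9682 bp for kept fibroblast-only peaks and 10337 bp for kept shared peaks. No other donor peak lay within 5000 bp of 71.2% (70.4% to 72.0%) of members, against 67.0% of all donor peaks. Shared peaks found in both NT lists stood farther apart than members, with a median gap of 12673 bp and 73.2% without a donor peak within 5000 bp. For the 112 fibroblast-only peaks in both NT lists these were 9682 bp and 73.2%. The gap was longer in members than in shared peaks absent after NT on 20 of 20 chromosomes. The number of other donor peaks within 100 kb to each side had a median of 5 for members and 6 for shared peaks absent after NT, and it was lower in members on 17 of 20 chromosomes. The share with no donor peak in that window was 5.37% in members, 2.70% in shared peaks absent after NT and 3.51% over all donor peaks.

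Although sparse, members tended to have members as neighbours. Beside the 32.5% over all donor peaks, the nearest other donor peak was a member for 42.0% (41.2% to 42.8%) of members, 36.9% (33.6% to 40.3%) of kept fibroblast-only peaks, 27.9% of shared peaks absent after NT and 26.3% of kept shared peaks. The rule treated each peak by itself, yet neighbouring peaks lie in the same stretch of the lists, so they are not independent of each other.

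Joined wherever at most 25000 bp separated them, 7672 members (58.0%) stood alone, 1690 pairs formed, and 2178 members (16.5%, 15.8% to 17.1%) fell into 640 clusters of 3 or more. This share is set largely by the joining distance, being 1.25% at 5000 bp, 4.28% at 10000 bp and 35.1% at 50000 bp. No such share is given for other classes of donor peaks, so whether members clustered more than those was not tested. The cluster with the most members held 9 in 71582 bp at chr4:111097268-111168849. No peak of the other 4 lists fell inside it. Its members began at 111097268, 111097734, 111115256, 111138075, 111140038, 111145632, 111149265, 111157632 and 111168603, and were 247 to 572 bp wide with a median of 450 bp. The nearest control NT peak was 9402 bp away and the nearest Toca1 peak 9091 bp.

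This cluster lies in Agbl4, which encodes a cytosolic carboxypeptidase that trims glutamates from tubulin: newly opened peaks after NT that the study's gene tables place in Agbl4 flank it on both sides. RefSeq also lists Bend5 in this stretch, and whether members lie in or near Bend5 was not analysed here. Between these flanking peaks, 151035 bp held 9 donor peaks, all of them members, beside 2 control NT peaks, 1 Toca1 peak and 1 C2C12 peak from 50000 cells. Agbl4 thus held open sites before and after NT, at different positions, as the rule and the choice of newly opened peaks require. Whether a member is exonic or intronic was not analysed here, because no annotation of the build of the lists was used.

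The second cluster held 8 members among 14 donor peaks at chr9:63499420-63595987, where the other 6 donor peaks were shared with C2C12 and absent after NT. It held 11 C2C12 peaks from 50000 cells and 0 peaks of either NT list, so none of its donor peaks had a counterpart after NT. It falls between 2300009A05Rik and Dis3l, a stretch of 13 protein-coding genes with Smad3 and Smad6, a signal transducer and an inhibitor of the TGF-beta and BMP pathways, and Map2k1, a kinase of the MAP kinase cascade. Which of these genes the members lie in or near was not analysed here.

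In 3 of the 10 clusters with the most members, every donor peak was a member and the lists of C2C12 from 50000 cells, control NT and Toca1 held 0 peaks. Besides the cluster in Agbl4, these were chr8:123607540-123640186 (6 members) and chr16:95463119-95507690 (6 members). The cluster on chromosome 8 falls between Crispld2 and 1700018B08Rik, a stretch of 16 protein-coding genes. It holds the forkhead factor genes Foxf1, Foxc2 and Foxl1 of mesenchymal development and Irf8, a factor of myeloid cells. The cluster is assigned to none of them. Its widest member, at 912 bp, was also the widest in the 10 clusters and lay 8550 bp from the nearest Toca1 peak. Another member of the cluster, 390 bp wide, had a Toca1 peak 900 bp away. The cluster on chromosome 16 falls between Kcnj6 and Erg, with Kcnj15 between them. Erg encodes an ETS transcription factor of endothelial and blood cells, and the Kcnj genes encode potassium channels.

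The remaining 6 clusters held other donor peaks besides members. They were chr7:29730522-29777142 (7 of 8 donor peaks), chr2:24979933-25049300 (7 of 9), chr11:83875041-83915058 (6 of 7), chr5:114820242-114863790 (6 of 8), chr8:109477077-109526724 (6 of 7) and chr11:98590490-98647378 (6 of 10). The cluster at chr11:83875041-83915058 falls between Ddx52 and Gm11437, with Synrg, Dusp14, Tada2a and Acaca, the last a rate-limiting enzyme of fatty acid synthesis. The cluster at chr11:98590490-98647378 falls in a stretch with the nuclear receptor genes Thra, Rara and Nr1d1 and with Igfbp4, a binding protein of insulin-like growth factors. It held 2 control NT peaks and 3 Toca1 peaks, the latter the most among these 10 clusters, and its nearest gaps to the lists were 911 and 334 bp. A member of the cluster on chromosome 5, between Usp30 and Mvk, was the only member of these 10 clusters with a 1000-cell C2C12 peak. Of all members, 1.51% had one.

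Longer stretches were found in which donor MEFs had only members. Counting consecutive donor peaks along a chromosome, 8256 members (62.4%) stood in 2868 runs of at least 2, 1897 (14.3%) in 294 runs of at least 5, and 28 runs reached 10 or more. Since members were 33.4% of donor peaks, short runs occur without any grouping of members, and how far the counts exceed those was not tested. The longest held 24 members in 1884654 bp at chr14:28654430-30539083. The same stretch held 1 C2C12 peak from 50000 cells, 1 control NT peak, 6 Toca1 peaks and 23 C2C12 peaks from 1000 cells. None of the latter met a member, which says little because only 1.51% of all members met a 1000-cell peak. It lies between Arhgef3 and Chdh, a stretch that holds Wnt5a, a secreted Wnt ligand, Erc2, Cacna2d3 and other protein-coding genes.

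The second run held 21 members at chr3:23308444-26868444, a span of 3560001 bp with 0 peaks of C2C12 from 50000 cells, 0 of control NT and 1 of Toca1. The same span held 29 C2C12 peaks from 1000 cells. It lies between Bhlhe22 and Tnik, where RefSeq lists 27 protein-coding genes. The third held 15 members at chrX:48784836-49679517, with 0 C2C12 peaks from 50000 cells and 3 from 1000 cells. It also held 1 control NT peak and 1 Toca1 peak, and the nearest control NT peak was 652 bp from a member. Of 3 runs of 14 members, the shortest lay at chr4:109617364-111168849, which ends with the Agbl4 cluster. Its stretch also holds Cdkn2c, Faf1, Dmrta2, Elavl4 and Bend5. The next lay at chr2:94400301-97215294, between Alx4 and Cstf3. The chromosome 4 run held 17 C2C12 peaks from 1000 cells and the chromosome 2 run 20, and each held 3 from 50000 cells. The chromosome 4 run also held 1 control NT peak and 1 Toca1 peak, and the chromosome 2 run 0 of either. Runs of members also occur where donor peaks of any class are few, and the 5 runs had 14 to 24 donor peaks in 894682 to 3560001 bp.

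**Figure D4:**
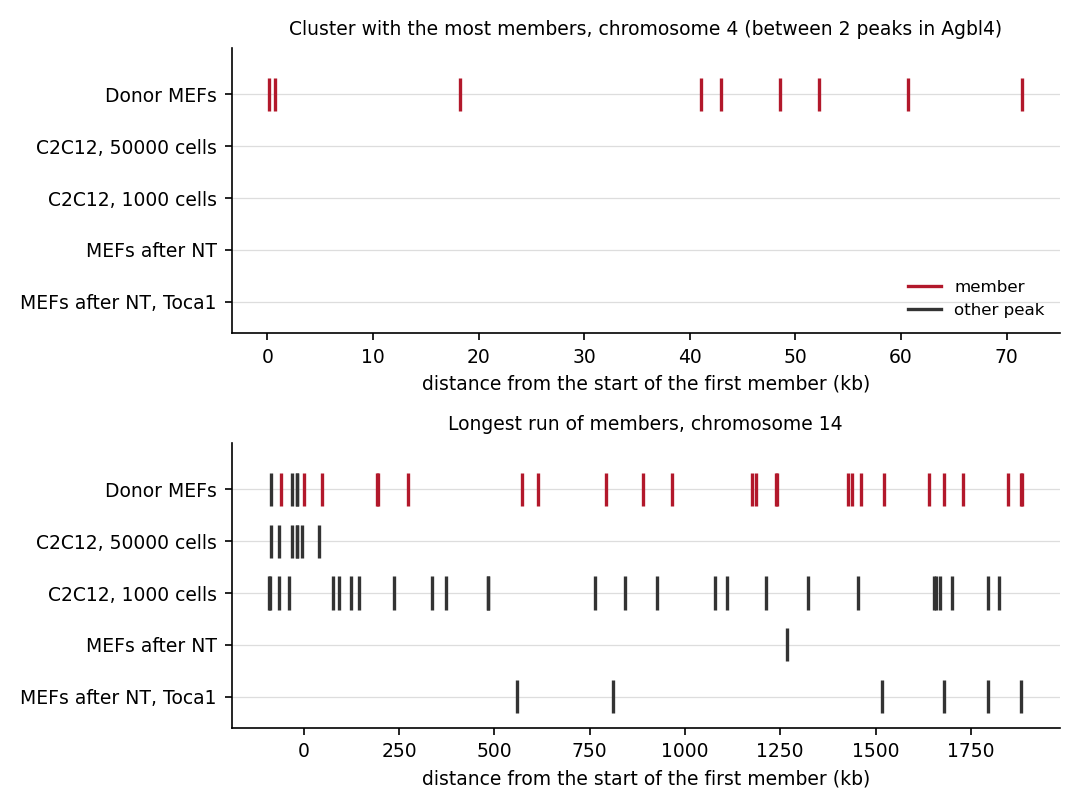
Position of peaks in the 5 lists (rows) along the cluster with the most members on chromosome 4 (upper panel, kb from the start of its first member) and the longest run of members on chromosome 14 (lower panel, same axis), with members in red and all other peaks in dark grey. The upper panel has peaks in donor MEFs only, 9 of them. In the lower panel the 24 members from 0 kb on stand beside 1 C2C12 peak from 50000 cells, 23 from 1000 cells, 1 control NT peak and 6 Toca1 peaks.

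Across bins of 1 Mb with at least 10 donor peaks, 1573 in all, members made up a median of 31.8% of donor peaks (quartiles 23.5% and 40.9%). Only 9 bins had no member. In 3 bins, every donor peak was a member: chr1:19000001-20000000 (12 of 12), chr3:25000001-26000000 (11 of 11) and chrX:49000001-50000000 (10 of 10). The bin chr5:131000001-132000000 followed with 17 of 18. It lies between Caln1 and Eln, a stretch of 17 protein-coding genes in RefSeq. Among them are Auts2, a gene of neural development, and Eln itself, which encodes the extracellular matrix protein elastin. Which of these genes the members lie in or near was not analysed here.

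By chromosome, the share of members was highest on chromosome 18 (38.2%, 35.7% to 40.9%), followed by 9 (37.5%) and 16 (36.5%). It was lowest on chromosome 12 (28.6%, 26.1% to 31.2%) and 11 (29.0%, 27.2% to 30.8%), and the X chromosome stood at 32.4%. The intervals of chromosomes 18 and 12 did not overlap. Chromosomes next to each other in this order did not differ beyond their intervals.

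**Figure D5:**
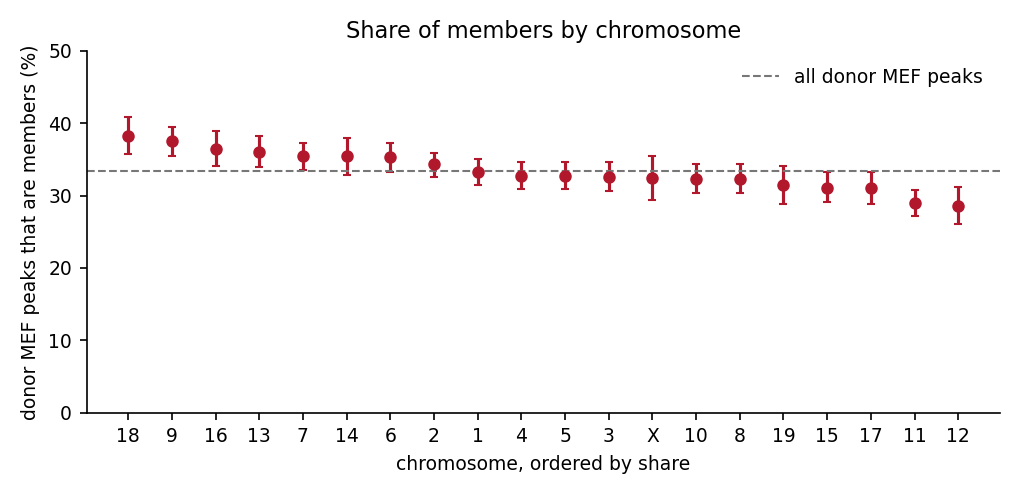
Share of donor MEF peaks that are members (y axis, %) on each of 20 chromosomes (x axis, ordered by share), with 95% Wilson intervals as bars and the share over all donor peaks, 33.4%, as a dashed line. Chromosome 18 stands highest at 38.2% and chromosome 12 lowest at 28.6%.

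The widest members were broad sites that were nevertheless found in donor MEFs only. The widest, 1496 bp at chr1:82358173-82359668, was 8938 bp from the nearest C2C12 peak, 57143 bp from the nearest control NT peak and 44515 bp from the nearest Toca1 peak. It lies between Serpine2 and Rhbdd1, a stretch that also holds Irs1, an adaptor of the insulin receptor, Nyap2, Dock10, Cul3 and Fam124b. Serpine2 encodes a secreted protease inhibitor. Next came chr8:124984552-124985899 (1348 bp), in a stretch of 25 protein-coding genes between Jph3 and Acsf3, with a Toca1 peak 7104 bp away. The third, chr3:13640117-13641372 (1256 bp), had no C2C12 peak within 740220 bp, no control NT peak within 892487 bp and no Toca1 peak within 166837 bp.

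The fourth, chr2:70447290-70448429 (1140 bp), lies between Sp5 and Platr26 in a stretch with the homeobox genes Dlx1 and Dlx2, the glutamate decarboxylase gene Gad1 and 11 other protein-coding genes. All 3 lists had their nearest peak 50863 to 51216 bp from it. The member at chr13:43683147-43684248 (1102 bp) lies between Phactr1, an actin-regulating gene, and Cd83, and the one at chr13:84786376-84787476 (1101 bp) had another member only 274 bp away. The remaining 4 were chr8:94449822-94450901 (1080 bp), chr15:78411636-78412706 (1071 bp), chr15:3338643-3339710 (1068 bp) and chr8:7308683-7309747 (1065 bp). Of these 10, the closest to an NT peak was chr15:78411636-78412706, which lay 2422 bp from a Toca1 peak. None of the 10 met a C2C12 peak from 1000 cells. That says little, as only 2.08% of members in the widest 25% of donor peaks and 1.51% of all members did.

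Members could be tied to a gene only where newly opened peaks placed within that gene by the study's gene tables, as far as they were held here, stood on both sides. This was possible for 134 genes with at least 2 such peaks, of which 50 had a donor peak between them and 42 a member. Summed over these genes, 75 of 134 donor peaks were members (56.0%, against 33.4% of all donor peaks). The genes were selected by peaks that opened after NT at a distance from every donor peak, so this share describes these stretches and not genes in general.

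In 20 of the 42 genes, every donor peak between the flanking peaks was a member, and 7 of these held more than 1. Besides Agbl4 with 9 members, they were Dym with 3 and Ablim3, Fnbp1, Nf1, Pdss2 and Vps13b with 2 each. Ablim3 and Fnbp1 belong to the actin cytoskeleton: Ablim3 encodes an actin-binding LIM protein, and Fnbp1 encodes an F-BAR protein of the same family as Toca1. Between the flanking peaks in Fnbp1 (chr2:30904701-30939300), the 2 members and the 2 newly opened peaks were the only peaks of the 5 lists. In Ablim3, too, the other lists held no peak apart from the 2 newly opened peaks after control NT. Dym and Vps13b encode proteins of the Golgi apparatus, Nf1 a GTPase-activating protein for Ras, and Pdss2 an enzyme of coenzyme Q synthesis.

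The stretch in Nf1 (chr11:79162346-79278624) held 2 members, 3 control NT peaks, 1 Toca1 peak, 0 C2C12 peaks from 50000 cells and 3 from 1000 cells. That in Pdss2 (chr10:42990212-43140629) held 2 members, 2 control NT peaks, 1 Toca1 peak and 0 C2C12 peaks from 50000 cells. In Vps13b (chr15:35320752-35629259), 2 members stood beside 2 control NT, 4 Toca1 and 3 C2C12 peaks from 50000 cells, and 2 from 1000 cells. Dym, with 3 members, had 2 control NT peaks, 2 Toca1 peaks, 1 C2C12 peak from 50000 cells and 2 from 1000 cells. In each of these genes the peaks after NT and the members lay at different positions, as the rule requires.

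Other genes held members beside donor peaks of other classes. Aff3, a gene of the transcription elongation machinery, held 4 members among 5 donor peaks. Trio and Kalrn held 4 of 12 and 3 of 5, and Trio also held 16 C2C12 peaks from 50000 cells. Rptor, a subunit of the mTORC1 kinase complex, held 3 of 4, and Tnrc6b, a component of microRNA-mediated silencing, 3 of 5. With 2 members each were Abi1, a subunit of the WAVE complex that drives actin branching (2 of 3), Maml3, a Notch coactivator (2 of 3), Skap1, an adaptor of T cells (2 of 3), Msra, a methionine sulfoxide reductase (2 of 5), Sh3pxd2a, a scaffold of podosomes (2 of 7), and Msi2, an RNA-binding protein (2 of 9).

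The other 24 genes held 1 member each. Among them were the kinase genes Mylk, which phosphorylates myosin light chains, and Prkce, the transcription factor genes Tcf7l2, Foxn3 and Zbtb7c, the axon guidance ligand Slit1, the adhesion gene Cdh4 and the calcium channel gene Cacna1d. The RNA-related genes Celf2 and Parn, the mismatch repair gene Msh3, the motor protein genes Myo3b and Dnah2 and the membrane traffic genes Gbf1 and Rabep1 also held 1. The rest were 9130011E15Rik, Acoxl, Atxn10, Dip2b, Gcnt2, Hormad2, Pald1, Pnpla1 and Rnf157.

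The identity of the donor cells could not be read from these sites. Of 20 fibroblast genes, among them Col1a1, Pdgfra, Twist1 and Prrx1, 0 were placed by peaks within the gene and 2, Twist2 and Tbx15, only as the closest gene start. Of 5 myoblast genes, 0 were placed within the gene and 1, Cdh15, only as the closest start. No count of members at these genes is therefore given, and whether the members include known fibroblast enhancers was not tested.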

How the data were processed

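ATAC-seq peaks of 5 conditions were taken from 5 deposited lists, which the authors called at a false discovery rate of 0.01 (by the list names). Each list holds peak positions in bp and no signal or score. A list was assigned to its condition by its name. The submitters' processing notes name Bowtie2 2.2.1, Picard, MACS2 2.1 and the mouse build mm9 without giving their order, and whether libraries of a condition were pooled before peak calling is not given in the sources used here. Peak ends past the last gene of GRCm38 (chromosome 7: 152516724 against 145324059) show that the lists are not in that build. No peak was therefore placed by a GRCm38 coordinate, and no GRCm38 sequence was used. Gene positions of that build served only to order genes.

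Members were donor MEF peaks sharing no base with the 3 lists of the rule. Positions were made 1-based. Shares have 95% Wilson intervals over peaks, medians of width have 95% order-statistic intervals, and no p-value was computed because each condition has 1 list. Depth per library is unknown. Gaps count the bases between peaks. The overlap code was checked on simulated lists and against bedtools 2.31.1. Python 3.11.15, numpy 2.4.6, pandas 2.3.3 and matplotlib 3.10.9 were used.

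Gene names came from newly opened peaks in the study's supplementary tables (1 of them shortened in the copy used) whose start and end matched a peak after NT exactly. From these tables only gene names and the peak's place relative to the gene were used. RefSeq (GRCm38.p6) supplied the order of genes: 2489 of 2496 symbols matched, and 1122 of 1124 neighbouring pairs stood in the same order. A region given as lying between 2 genes is assigned to none of them. No file here held the sequence of the members.

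The members, the gene lists and the rule for named regions were chosen with earlier results of these data known. Named were the 10 widest members, the 10 clusters with the most members, the 5 longest runs, the 10 widest members with a 1000-cell C2C12 peak, the 3 members nearest to each NT list, the chromosomes with the highest and lowest shares, and every gene with newly opened peaks on both sides of a member. The 1-Mb bins were named after their values were seen.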

Additional observations from a re-analysis of the deposited data

How the results depend on the processing

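Of 56 values computed under other settings, 26 stayed inside the interval of the reported value or, for the number of members, within 1.5 times of it, 30 moved further and 0 reversed. Only the difference in the share with a 1000-cell peak has a direction that could reverse. For the counts, shares and widths the 0 is fixed in advance. The number of members lay between 8827 and 17488 except when the C2C12 list from 50000 cells was left out of the rule, which gave 30745 members, or 77.7% of donor peaks. The members were then 373 bp wide by median, 3.78% met a 1000-cell C2C12 peak and 66.8% had no donor peak within 5000 bp. Requiring a reciprocal overlap of 50% before a peak counted as shared gave a share of 44.2%, a median width of 341 bp, 1.13% with a 1000-cell peak, 67.3% without a donor peak within 5000 bp and a difference of 3.11 percentage points, instead of 6.78, between other donor peaks and members in the share with a 1000-cell peak. Counting peaks within 500 bp as shared gave 30.8%, 340 bp, 3.01%, 74.4% and 7.67 points. In the reciprocal and the 500 bp settings, the same criterion also decided whether a 1000-cell peak was met. Their 1000-cell shares and differences thus use another measure than the reported 1.51% and 6.78 points, which count any shared base. Counting those within 5000 bp gave 22.3%, 352 bp and 85.2%. Joining peaks up to 150 bp apart gave 341 bp and 74.7%. Keeping peaks at least 250 bp wide gave 34.8%, 362 bp, 0.961%, 77.4% and 5.53 points. The share of members was 32.9% when they also had to be absent from the 1000-cell list, and the share with a 1000-cell peak is then 0 by construction and was left out. It was 34.7% without the Toca1 list. Cluster size depended on the joining distance: clusters of 3 or more held 1.25% of members at 5000 bp, 4.28% at 10000 bp and 35.1% at 50000 bp, against 16.5% at 25000 bp. The difference in the share with a 1000-cell peak kept its direction under each setting in which it was computed. No paired analysis was possible because the libraries of a condition share 1 list, and no library could be left out for the same reason. The lists hold no depth, so how the missing peaks depend on it was not tested.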
